A study of Mus musculus with 3 samples.

Results

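The Rdh10 Bmp3 otic cells are a set of epithelial cells of the otic vesicle, the sac that gives rise to the inner ear, defined by 7 genes. A barcode was taken as an otic cell if it had 1000 or more detected genes and no more than 10% mitochondrial UMIs (unique molecular identifiers, each marking 1 captured transcript). It also needed at least 1 UMI of the epithelial gene Epcam, at most 1 UMI of the mesenchyme genes Prrx1 and Twist1 together, and at least 1 UMI of the otic genes Fbxo2, Hmx2, Hmx3 or Pax2. An otic cell was gated if at least 4 of Rdh10, Elf1, Rspo3, Bmp3, Prss56, Frrs1 and Slc30a4 had a UMI. The gate kept 2222 of 10211 otic cells, out of 26130 cells that passed the cell filter and 37301 barcodes. The 7 gate genes came from an earlier clustering of the same cells, so their levels, and every contrast of gated with other otic cells, are descriptions with no test.

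The cells come from 3 single-cell libraries of pooled, dissociated mouse otic vesicles at E10.5. The library CD replicate 1 is from Sox9Y440X/+ embryos, which carry 1 copy of Sox9 with a premature stop, and the libraries WT replicate 1 and WT replicate 2 are from wild-type embryos. The strain and the number of embryos in each pool are not given in the sources used here. There is 1 CD library, so genotype and pool cannot be told apart.

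The otocyst is patterned along its axes by signals from the hindbrain and the surrounding tissue, and its dorsal wall grows out as the endolymphatic duct and sac, which later regulate the fluid of the inner ear. Wnt signals from the dorsal hindbrain favour dorsal otic identity, with Dlx5, Dlx6, Gbx2, Lmx1a and Wnt2b as well-known genes of that region. SOX9 and SOX10 are related transcription factors of the otic epithelium that also act in cartilage and in neural crest. The series concerns the balance between SOX9 and Wnt activity in the otocyst and the part of SOX10 in endolymphatic development.

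The 3 libraries held 157373393 to 202584468 UMIs. The gated cells had median depths of 22643 UMIs in CD replicate 1, 30218 in WT replicate 1 and 20263 in WT replicate 2, against 19447, 21972.5 and 15863 UMIs in the other otic cells. Their counts summed to 20740227, 25139472 and 18276533 UMIs. Between 28 and 55 barcodes were shared by any 2 libraries. Doublets called by Scrublet made up 2.88% to 5.14% of gated cells and 1.71% to 2.20% of other otic cells. In WT replicate 2 the gated cells carried more RNA of blood cells than in the other libraries. The 13 erythroid markers summed to 4474 CPM (a gene's share of all UMIs of the summed cells, as counts per 1000000) in CD replicate 1, 4944 in WT replicate 1 and 13019 in WT replicate 2, and the 13 macrophage markers to 22.0, 17.02 and 135 CPM, with 0 members of either list at 0. Nearly all gated cells had some of this erythroid RNA, with a UMI of the haemoglobin gene Hbb-y in 99.6%, 98.8% and 99.6% of them. Most of it lay in few cells: 4, 5 and 13 gated cells had over 1% of their UMIs from haemoglobin genes. These cells held 80.5%, 90.9% and 95.5% of the haemoglobin UMIs of the gated cells.

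Gated cells made up 23.5% of the otic cells of CD replicate 1 (754 of 3210, 95% Clopper-Pearson interval 22.0 to 25.0). They were 25.9% of those of WT replicate 1 (729 of 2819, interval 24.3 to 27.5) and 17.7% of those of WT replicate 2 (739 of 4182, interval 16.5 to 18.9). The CD share lay between the WT shares, 1.72 percentage points above their mean, with an SD of 5.79 points between the WT libraries. The intervals cover counting error only. Because the gate asks for UMIs, it favours deep cells. With every cell thinned to 5000 UMIs before the gate, the shares were 12.5% (385 of 3091), 10.1% (280 of 2764) and 9.58% (378 of 3946), and 119, 55 and 236 shallower otic cells were left out. There the CD share lay 2.60 points above the WT mean (SD 0.390 between the WT libraries). The gate genes themselves differ between the libraries, so these shares are values with no test.

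**Figure D1:**
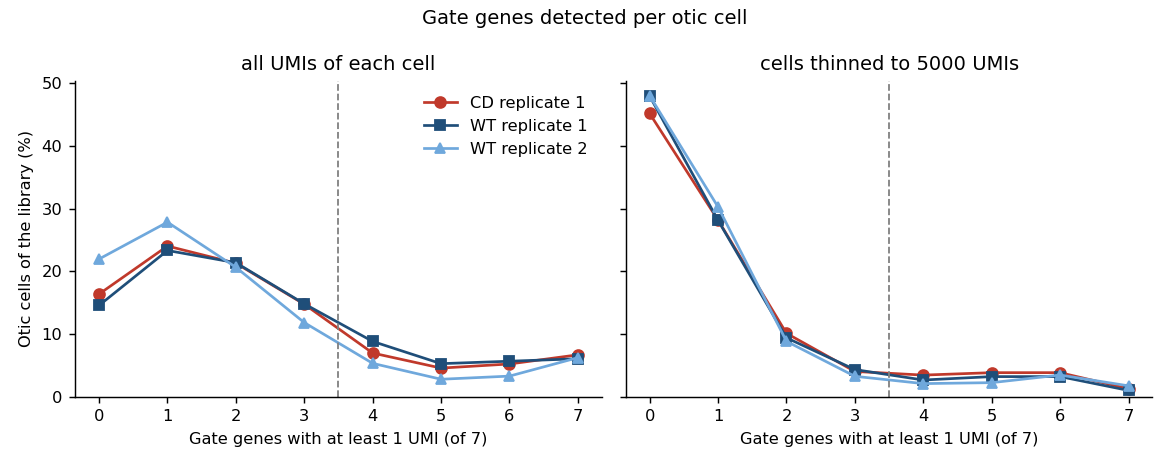
Share of the otic cells of each library (percent, vertical axis) by how many of the 7 gate genes had at least 1 UMI (horizontal axis), with all UMIs (left) and after thinning to 5000 UMIs per cell (right); the dashed line marks the gate. In each library the share falls to a low at 5 genes and is higher at 7 (left), 6.70%, 6.07% and 6.24% for CD replicate 1, WT replicate 1 and WT replicate 2.

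The number of gate genes per cell had a peak at 1 gene and a smaller one at 7. In CD replicate 1, 224 cells had 4 gate genes, 147 had 5, 168 had 6 and 215 had 7. The same counts were 249, 149, 160 and 171 cells for WT replicate 1 and 223, 117, 138 and 261 for WT replicate 2. Cells just inside the gate, with 4 genes, were deeper than those with 7: 27404 against 20311 UMIs in CD replicate 1, 35203 against 21761 in WT replicate 1 and 25262 against 17966 in WT replicate 2 (medians). Just outside the gate, 474, 418 and 495 cells had 3 gate genes.

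Cells at the edge of the gate resembled those outside it more than those with all 7 genes. Nrp2, a receptor for semaphorins and VEGF that the gate does not use, stood at 24.0 CPM in CD replicate 1 cells with 3 gate genes, 70.9 CPM with 4 and 894 CPM with 7. In WT replicate 1 it was at 5.83, 10.9 and 508 CPM, and in WT replicate 2 at 11.1, 17.8 and 569 CPM. Wnt2b, a Wnt ligand of the dorsal otocyst, was at 1.22, 3.83 and 25.1 CPM over the same steps in CD replicate 1, at 0.149, 0.734 and 15.98 CPM in WT replicate 1 and at 0.536, 1.29 and 16.9 CPM in WT replicate 2. Both genes rise steeply between 5 and 7 gate genes in each library.

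**Figure D2:**
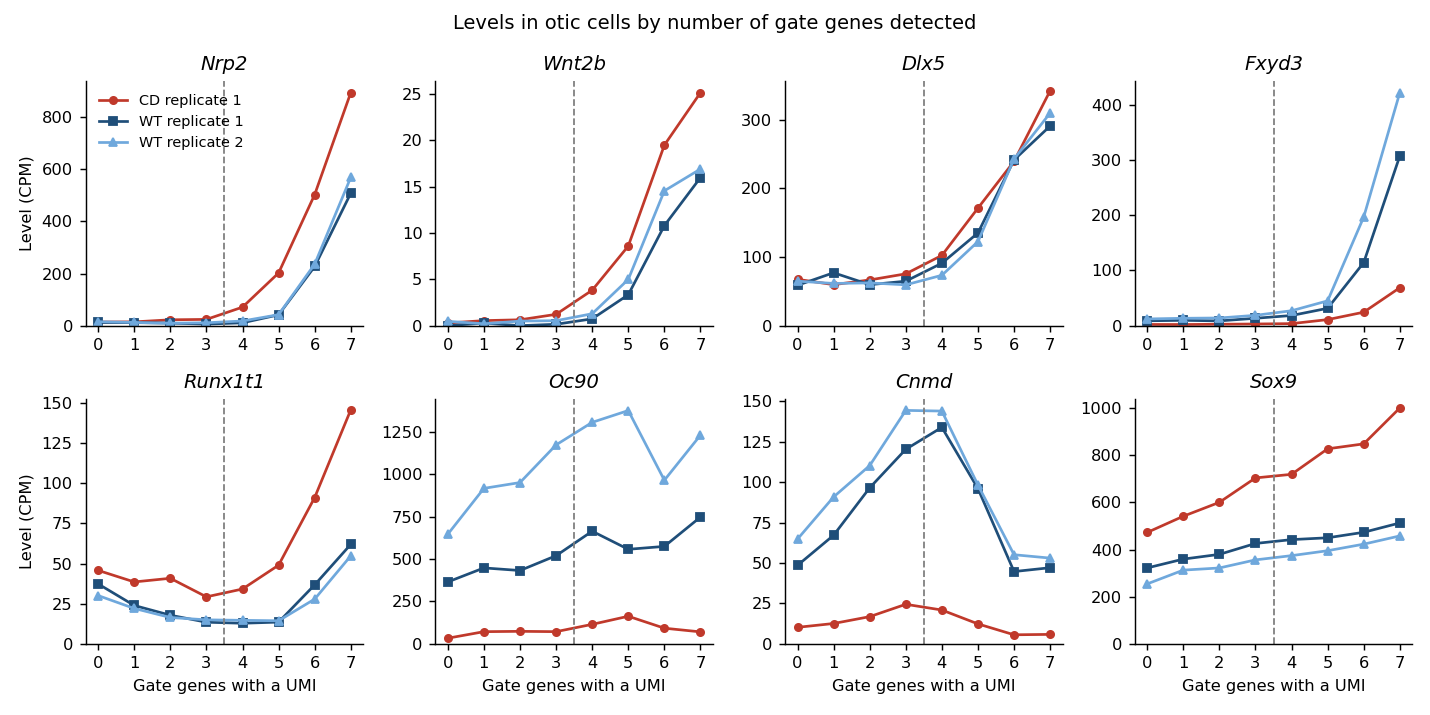
Level of 8 genes outside the gate (CPM, vertical axes that start at 0) in otic cells grouped by the number of gate genes with a UMI (horizontal axes), 1 line per library; the dashed line marks the gate. Nrp2, Wnt2b, Dlx5 and Fxyd3 are high in cells with 6 or 7 gate genes, Cnmd is highest in the WT libraries at 3 or 4, and the CD line lies below both WT lines for Oc90, Cnmd and Fxyd3 and above both for Sox9 at every step.

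Sp8, a zinc finger transcription factor, went from 1.44 to 78.3 CPM between 3 and 7 gate genes in CD replicate 1, from 1.20 to 67.6 CPM in WT replicate 1 and from 0.536 to 58.6 CPM in WT replicate 2. Dlx5, a homeobox gene required for the dorsal inner ear, went from 75.6 to 342 CPM, from 64.8 to 291 CPM and from 59.5 to 310 CPM. Sox2, a factor of prosensory and neurogenic cells, went the other way, from 113 to 17.3 CPM, from 114 to 28.3 CPM and from 83.9 to 21.9 CPM. Otx2, a homeobox gene of the posterolateral otocyst, dropped from 37.5 to 4.32 CPM in CD replicate 1, from 54.2 to 12.1 CPM in WT replicate 1 and from 77.7 to 11.2 CPM in WT replicate 2. The gate at 4 genes therefore holds a core of Nrp2-high cells and a rim of deeper cells, and values over the whole gate average both.

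Of 24 dorsal and endolymphatic markers, 13 were higher in the gated cells of all 3 libraries, 8 were lower in all 3 and 3 were mixed. Gbx2, a dorsal homeobox gene, was at 113, 75.8 and 80.8 CPM in the gated cells of CD replicate 1, WT replicate 1 and WT replicate 2, against 21.8, 17.2 and 9.95 CPM in the other otic cells. Lmx1a, a LIM homeobox gene of the same region, was at 205, 162 and 182 CPM against 72.7, 73.4 and 68.3 CPM. Wnt2b was at 13.5, 6.25 and 9.08 CPM against 0.717, 0.118 and 0.406 CPM. Msx2, Msx1, Fzd10 and Dlx6 were also higher in the gated cells of each library, with log2 ratios of 1.16 to 2.59.

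Lmx1b, Oc90, Spint2 and Pax2 were also higher in each library, with log2 ratios from 0.18 to 1.24, and Pax2 is among the genes that define otic cells here. Bmp4, a BMP ligand of dorsal and sensory patches, was lower, at 21.8, 25.4 and 17.1 CPM against 79.05, 38.8 and 46.6 CPM. The homeobox genes Hmx2 and Hmx3 and the zinc finger genes Gata2 and Gata3 were lower as well, with log2 ratios between -0.96 and -0.32, and so were Radil, Cldn10 and Spock2. Slc26a4, the anion exchanger pendrin of the endolymphatic sac, had 3, 10 and 7 UMIs in the gated cells. Its levels were 0.145, 0.398 and 0.383 CPM, against 0.132, 0.609 and 0.649 CPM in the other otic cells. Foxi1, a regulator of Slc26a4, had 17, 29 and 69 UMIs (0.820, 1.15 and 3.78 CPM), found in 13, 19 and 35 gated cells, while 1, 2 and 1 of the other otic cells had a UMI, and it was higher in the gated cells of each library. The 26 genes of endolymph ion transport summed to 478, 549 and 660 CPM in gated cells and to 452, 407 and 403 CPM in other otic cells. A large part of this gap came from 1 of them, Fxyd3, at 26.2, 94.6 and 181 CPM against 2.47, 10.2 and 14.4 CPM. Since the dorsal and endolymphatic markers were divided, the cells are called here by their gate genes.

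Dorsal genes were also counted per cell at equal depth, after thinning to 5000 UMIs. None of Wnt2b, Gbx2, Dlx5, Lmx1a and Msx2 had a UMI in 11.4%, 13.9% and 14.7% of gated cells, against 50.2%, 50.9% and 53.2% of other otic cells. Exactly 3 of these 5 genes had one in 28.7%, 20.6% and 24.9% of gated cells, against 3.03%, 2.41% and 2.12%. A Dlx5 UMI was found in 63.0%, 57.2% and 58.3% of gated cells (CD replicate 1, then WT replicates 1 and 2), and in 24.0%, 24.2% and 22.1% of other otic cells. Mesenchyme-like cells had shares of 0.667%, 0.515% and 1.16%. The unthinned shares were 91.5%, 86.6% and 83.6% in gated cells. Thinning left out 8, 0 and 3 gated cells of these libraries.

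Nrp2 had a UMI in 62.2% of thinned gated cells in CD replicate 1, 36.8% in WT replicate 1 and 46.7% in WT replicate 2 (unthinned 80.2%, 59.0% and 63.6%). In other otic cells it was found in 6.91%, 2.65% and 4.86%, and in mesenchyme-like cells, at median depths of 18976, 19959 and 16550 UMIs, in 19.5%, 20.2% and 17.9%. Isl1 and Neurog1 were less frequent in thinned gated cells than in other otic cells of each library, given as a description of these genes alone. Isl1, a gene of sensory and neurogenic cells, was found in 9.74% to 11.1% of thinned gated cells, against 22.6% to 30.8% of other otic cells and 2.06% to 4.12% of mesenchyme-like cells. Neurog1, the proneural factor of ear neurons, was found in 0.536% to 0.686% against 2.68% to 4.22%. With 4 or 5 gated cells per library and a share of 0.103% to 0.291% in mesenchyme-like cells, its gated share is near the background. Bmper, a BMP-binding protein, was more frequent in gated cells, in 9.12%, 12.3% and 13.2% against 2.94%, 3.93% and 3.92%, and in 0.849%, 0.927% and 1.21% of mesenchyme-like cells.

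The genes that stood out in the gated cells beyond the gate genes are given as a description. Of the genes with a mean of at least 20 CPM, the 15 with the highest ratio to other otic cells were Col5a3, Pyy, Col14a1, Sp8, Nrp2, Snx7, Gfra3, Tulp2, Svopl, Fxyd3, Apcdd1, Gria4, Hspb1, Lrrtm1 and Klf5. Col5a3, a fibrillar collagen chain, was at 11.8, 24.7 and 49.8 CPM in gated cells and at 0.321, 0.491 and 0.438 CPM in the other otic cells. Col14a1, a collagen that binds fibrils, was at 57.0, 27.5 and 56.6 CPM against 1.96, 1.43 and 2.35 CPM. Apcdd1, a membrane-bound Wnt antagonist, was at 90.6, 58.4 and 65.7 CPM against 7.81, 7.13 and 5.97 CPM. Gfra3, a receptor of the GDNF family, was at 23.9, 15.3 and 27.8 CPM against 1.49, 1.08 and 1.06 CPM. Over the 15 genes and the 3 libraries, the log2 ratios ran from 2.54 to 5.75.

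The 10 genes with the lowest ratio were Neurod1, Ppp1r14a, Ntf3, Lfng, Isl1, Insm1, Otol1, Ebf1, Fgf10 and Stmn2, most of them known from neuroblasts, neurons or prosensory epithelium. Neurod1, a neuroblast factor, was at 36.7, 35.2 and 36.0 CPM in gated cells against 150, 132 and 113 CPM. Ntf3, a neurotrophin of the prosensory otocyst, was at 9.69, 9.31 and 7.55 CPM against 29.7, 26.8 and 27.7 CPM. Lfng, a modifier of Notch receptors, was at 11.04, 12.8 and 5.96 CPM against 27.8, 30.9 and 23.4 CPM. The 10 genes were picked for a lower level in the gated cells of each library, so this gap follows from the choice.

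**Figure D3:**
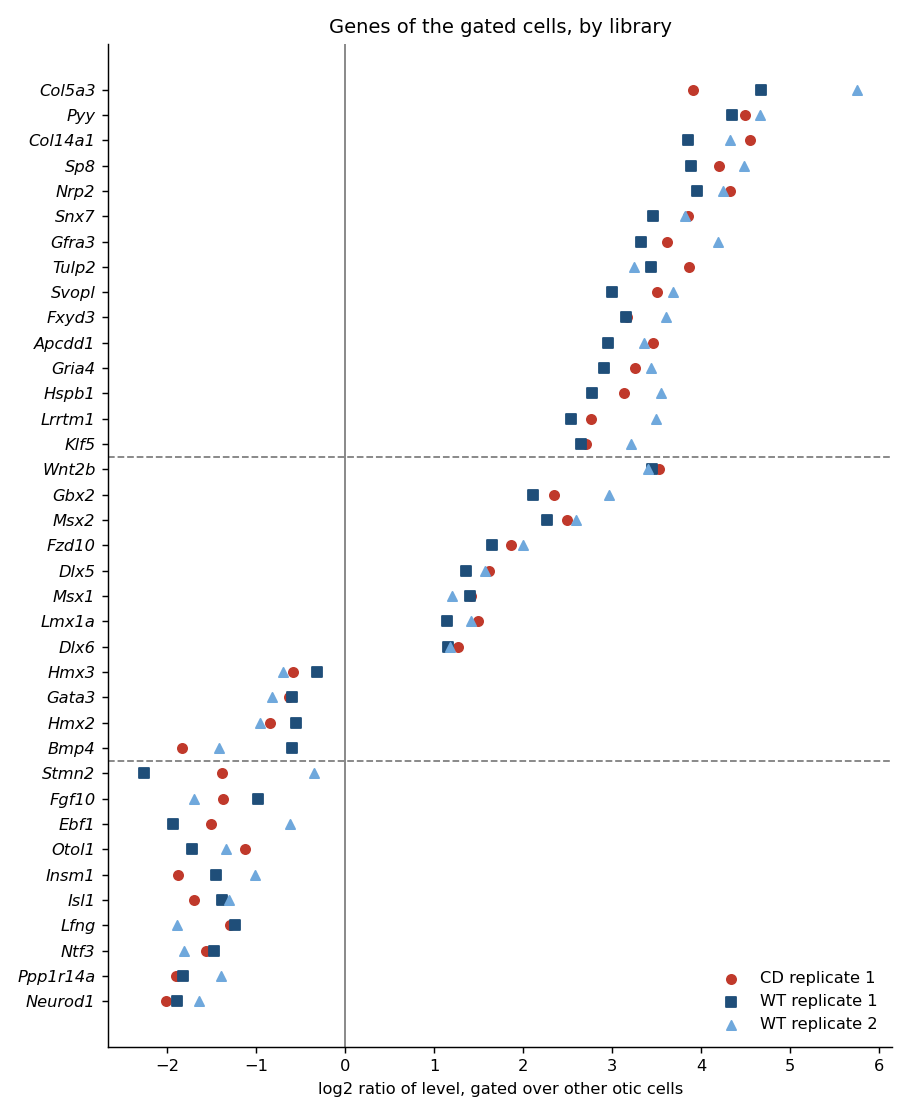
log2 ratio of the level in gated cells to that in other otic cells (horizontal axis) for the 15 genes with the highest ratios (top), 12 dorsal and otic regulators (middle) and the 10 genes with the lowest (bottom), 1 symbol per library. Wnt2b, Gbx2, Msx2, Fzd10, Dlx5, Msx1, Lmx1a and Dlx6 lie right of 0 in the 3 libraries, and Hmx2, Hmx3, Gata3 and Bmp4 lie left of it.

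The gated cells also held the enzymes of a retinoid pathway. Rdh10, a gate gene that makes retinaldehyde from retinol, was at 181, 161 and 307 CPM in the gated cells of CD replicate 1, WT replicate 1 and WT replicate 2, against 9.91, 10.02 and 12.2 CPM in other otic cells. Aldh1a1, which oxidises retinaldehyde to retinoic acid, was at 28.5, 32.1 and 33.0 CPM against 3.32, 7.23 and 4.35 CPM. Dhrs3, which reduces retinaldehyde back to retinol, was at 6.22, 5.33 and 10.998 CPM against 1.72, 1.87 and 3.21 CPM. Aldh1a2 was lower in the gated cells, at 2.89, 2.78 and 6.95 CPM against 10.51, 11.7 and 13.4 CPM. The last 3 were chosen after their values were seen.

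In gated cells the Sox9 level was above both WT values in CD and the Sox10 level below both, and neither passed the threshold. Sox9 was at 841 CPM in CD replicate 1, 464 in WT replicate 1 and 412 in WT replicate 2 (log2 fold change 0.88 with an SE of 0.17, adjusted p = 0.300 by edgeR). A count from the 3' end of the transcript does not read the changed codon and adds both alleles, so it does not check the genotype. Sox10 was at 66.9, 114 and 136 CPM (log2 fold change -0.97 with an SE of 0.20, adjusted p = 0.300 by edgeR). Sox8, the third gene of this group, was at 4.002, 8.99 and 7.93 CPM (-1.14, SE 0.30, edgeR adjusted p = 0.621). For each of these genes the CD value lies outside the range of the WT pair. With the gate applied to thinned cells, Sox9 (0.90, SE 0.17, edgeR adjusted p = 0.00840) and Sox10 (-1.10, SE 0.20, edgeR adjusted p = 0.00718) passed. In the other otic cells of these libraries Sox9 (0.74, SE 0.14, edgeR adjusted p = 0.0156) and Sox10 (-0.76, SE 0.16, edgeR adjusted p = 0.0264) passed too. The difference between the 2 populations did not pass for Sox9 or Sox10. Sox2 was at 59.9, 63.0 and 45.1 CPM, with overlapping groups.

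Over all genes, 2 rose and 5 fell in the gated cells of the CD library, of 15260 tested. That is 0.0459% of the genes tested by edgeR at an adjusted p of 0.05 (0.0131% higher and 0.0328% lower). Without adjustment, 498 genes had a p under 0.05, and 763 would from uniform p-values. The test has 1 residual degree of freedom, from the WT pair, and assumes that the lone CD library varies like WT. Runx1t1 and Gad2 rose, and Cnmd, Oc90 and Bricd5 were among the genes that fell. Gad2 has a mean below 10 CPM and was named after its values were seen.

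Cnmd encodes chondromodulin, a glycoprotein of cartilage matrix. It was at 12.1 CPM in CD replicate 1, 90.6 in WT replicate 1 and 92.3 in WT replicate 2 (log2 fold change -2.99 with an SE of 0.22, adjusted p = 0.00226 by edgeR). The WT values lie within 2 CPM of each other and the CD value is far below both. A Cnmd UMI was found in 4.69% of thinned gated cells of CD replicate 1, against 23.0% and 25.0% in WT (unthinned 14.5%, 55.4% and 53.2%). In WT mesenchyme-like cells the thinned shares were 0.824% and 1.36%. Cnmd was lower in the core of the gate than in its rim and just outside it. In WT it was at 120 and 144 CPM in cells with 3 gate genes, which are not gated. It was at 134 and 144 CPM in WT cells with 4 gate genes and at 47.1 and 53.0 CPM in those with 7. In the CD library it was at 24.4, 20.9 and 5.82 CPM over the same steps.

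Oc90 encodes otoconin, the main matrix protein of otoconia. It was at 109 CPM in CD replicate 1, 637 in WT replicate 1 and 1236 in WT replicate 2 (log2 fold change -3.17 with an SE of 0.37, adjusted p = 0.0404 by edgeR). The WT libraries differ among themselves, and the CD value is below both. Across the numbers of gate genes, from 0 to 7, its level ran from 33.0 to 163 CPM in CD replicate 1, 365 to 748 CPM in WT replicate 1 and 647 to 1377 CPM in WT replicate 2. The CD level was below both WT levels at every number of gate genes. An Oc90 UMI was found in 20.6% of thinned CD gated cells, against 63.8% and 80.8% in WT (unthinned 42.2%, 90.4% and 95.8%). Mesenchyme-like cells had thinned shares of 0.788%, 3.81% and 16.5%. Of 10 otoconial and acellular membrane matrix genes tested, Oc90 fell, 0 rose, and 2 were positive, with a median log2 fold change of -0.83. Otol1, the otolith collagen otolin, was at 12.2, 18.5 and 21.3 CPM (-0.78, edgeR adjusted p = 0.814).

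Bricd5, a gene for a small BRICHOS domain protein, was at 5.4001 CPM in CD replicate 1, 25.1 in WT replicate 1 and 34.7 in WT replicate 2 (log2 fold change -2.53 with an SE of 0.28, adjusted p = 0.02895 by edgeR). The CD value is below both WT values. The rule that named calls in gated cells asked for a change larger than the gap between the WT libraries.

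Runx1t1, a transcriptional corepressor of the ETO family, was at 77.8 CPM in CD replicate 1, 27.0 in WT replicate 1 and 29.3 in WT replicate 2 (log2 fold change 1.40 with an SE of 0.18, adjusted p = 0.0404 by edgeR). Its UMIs were found in 29.2% of thinned CD gated cells, against 11.2% and 13.9% in WT (unthinned 63.0%, 38.1% and 35.9%), and in 27.3%, 21.3% and 19.98% of mesenchyme-like cells. In cells with 7 gate genes it was at 146, 62.0 and 54.8 CPM, so the CD level was higher in the core of the gate too. Gad2, an enzyme that makes the transmitter GABA, was at 12.4 CPM in CD replicate 1 against 1.19 and 2.08 in the WT libraries (2.88, SE 0.35, edgeR adjusted p = 0.0404), from 258, 30 and 38 UMIs.

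These 5 named calls did not hold equally. Cnmd passed in 10 of 10 alternatives that give a test (edgeR or DESeq2 adjusted p from 5.05e-30 to 0.0427). The other 4 lost the call without called doublets, without cells holding a Prrx1 or Twist1 UMI and with a stricter cell filter, with adjusted p up to 0.231. With the gate on thinned cells, which keeps 385, 280 and 378 cells, 18 genes rose (0.133%) and 51 fell (0.376%) of 13553 tested by edgeR, 0.509% in all, with the 5 among them. In the other otic cells of these libraries 44 genes rose (0.267%) and 49 fell (0.297%) of 16486 tested by edgeR, 0.564% in all. The 7 genes called in gated cells were all among these. In the other otic cells Cnmd was at 16.8 CPM in CD replicate 1, 88.1 in WT replicate 1 and 103 in WT replicate 2, and Gad2 at 5.06, 0.825 and 0.568 CPM. These comparisons share the 3 libraries with the gated ones.

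**Figure D4:**
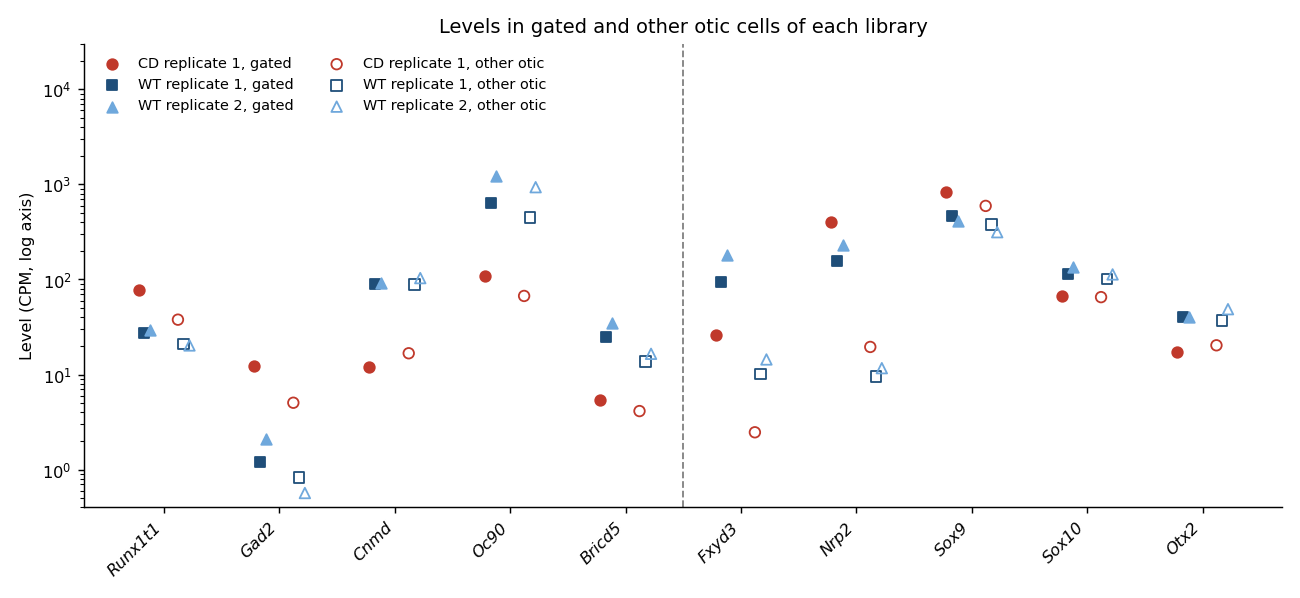
Level (CPM, log axis) of 5 genes past the threshold (left of the dashed line) and 5 further named genes (right) in gated cells (filled) and other otic cells (open), 1 symbol per library. For the 5 genes on the left the CD value lies outside the WT pair in both populations, and Fxyd3 and Nrp2 are higher in gated than in other otic cells of every library. In gated cells the rule that named calls asked for this, and Gad2 was named outside that rule.

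Upstream sequence was available for 3 of these 5 genes, shown since they are the members that the genotype comparison turns on. They are RefSeq windows on build GRCm38.p6, from 250 bases before to 50 after the annotated start, written in the direction of the gene. Cnmd lies at chr14:79662134-79662433 (minus strand), Bricd5 at chr17:24473634-24473933 (plus strand) and Gad2 at chr2:22622077-22622376 (plus strand). They were searched on both strands for ACAAAG and ACAATG, words often given for SOX factors, which do not overlap each other, and matches are in capitals.
Cnmd: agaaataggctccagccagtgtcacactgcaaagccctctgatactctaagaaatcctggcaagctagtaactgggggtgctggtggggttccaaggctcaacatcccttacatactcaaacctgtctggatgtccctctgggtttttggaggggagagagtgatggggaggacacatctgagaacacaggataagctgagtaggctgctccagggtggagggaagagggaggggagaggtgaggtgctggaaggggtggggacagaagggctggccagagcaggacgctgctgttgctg
Bricd5: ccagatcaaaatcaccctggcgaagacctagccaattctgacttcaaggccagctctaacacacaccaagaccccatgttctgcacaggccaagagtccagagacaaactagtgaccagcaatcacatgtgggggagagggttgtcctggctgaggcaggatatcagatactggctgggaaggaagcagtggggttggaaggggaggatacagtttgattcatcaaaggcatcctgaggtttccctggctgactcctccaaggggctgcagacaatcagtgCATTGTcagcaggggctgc
Gad2: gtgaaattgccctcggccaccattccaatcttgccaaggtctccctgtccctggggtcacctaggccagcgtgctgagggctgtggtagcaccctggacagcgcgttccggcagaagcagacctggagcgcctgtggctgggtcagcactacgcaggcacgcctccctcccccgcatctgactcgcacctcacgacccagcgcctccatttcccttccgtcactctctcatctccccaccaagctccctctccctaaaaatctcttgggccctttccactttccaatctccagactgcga
Bricd5 has 1 match, ACAATG on the opposite strand, that begins 32 bases after the start, and the other 2 windows have 0. Of 32851 windows of this length in the table, 28.6% hold at least 1 match.

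Fxyd3 and Nrp2, both kept out of the gate, differed in the CD library in opposite directions without passing. Fxyd3, a regulator of the sodium pump, was at 26.2 CPM in CD replicate 1, 94.6 in WT replicate 1 and 181 in WT replicate 2 (log2 fold change -2.46 with an SE of 0.36, adjusted p = 0.0853 by edgeR). The CD value is below both WT values, and it was so at each number of gate genes, with 68.7, 307 and 422 CPM in cells with 7. With the gate on thinned cells it fell (-2.58, SE 0.23, edgeR adjusted p = 5.2e-07). A Fxyd3 UMI was found in 11.3% of thinned CD gated cells and 31.0% and 43.1% of WT ones (unthinned 25.2%, 60.8% and 66.3%), and in 0.243%, 0.515% and 1.46% of mesenchyme-like cells.

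Nrp2 was at 399 CPM in CD replicate 1, 155 in WT replicate 1 and 230 in WT replicate 2 (log2 fold change 0.99 with an SE of 0.23, adjusted p = 0.425 by edgeR). The CD value is above both, and the SD between the WT values is 53.2 CPM (n = 2). With the gate on thinned cells the difference was smaller (0.62, SE 0.17, edgeR adjusted p = 0.157). At 4 gate genes the Nrp2 level was 70.9 CPM in CD against 10.9 and 17.8 in WT, and at 7 genes at 894 against 508 and 569 CPM. Of the 16 neuropilins, semaphorins and plexins tested 0 passed and 10 were positive (median 0.12). Plxna2, a plexin that pairs with neuropilins, was at 23.6, 7.84 and 12.9 CPM (1.13, edgeR adjusted p = 0.590).

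The gate genes themselves, as a description, did not move together. Elf1, an ETS factor, was at 499 CPM in CD replicate 1, 307 in WT replicate 1 and 419 in WT replicate 2. Rspo3, a secreted enhancer of Wnt signalling, was at 484, 236 and 411 CPM. Frrs1, a ferric reductase, was at 342, 174 and 250 CPM, and Slc30a4, a zinc exporter, at 203, 160 and 140 CPM. Bmp3, an atypical BMP ligand, was at 72.6, 25.2 and 69.6 CPM. Each of these genes had a CD level above both WT levels, Bmp3 by a small margin over WT replicate 2. Rdh10 was between the WT libraries, and Prss56, a serine protease, was below both at 33.4, 47.9 and 92.9 CPM.

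Among signalling lists, no member rose or fell in the gated cells of the CD library by edgeR, and the medians are set beside a median of 0.00 and 50.1% positive over all genes tested. Of 20 Wnt/beta-catenin targets tested 16 were positive (median log2 fold change 0.30). In the other otic cells 16 of 19 were positive (median 0.30), and in the difference between the populations 8 of 20 (median -0.02). Summed over the list, the gated level was 1273 CPM in CD replicate 1, between 1330 in WT replicate 1 and 1075 in WT replicate 2. Notum, a Wnt deacylase induced by the pathway, was at 44.3, 23.4 and 24.6 CPM (0.82, SE 0.18, edgeR adjusted p = 0.345), and Lef1, which partners beta-catenin on DNA, at 78.1, 50.8 and 47.0 CPM (0.61, edgeR adjusted p = 0.796). The CD value lies above both WT values for each. Of 15 Wnt ligands and R-spondins, 7 were positive (median -0.24). Wnt7b was at 18.3, 29.0 and 37.6 CPM (-0.93, edgeR adjusted p = 0.490), and Wnt2b at 13.5, 6.25 and 9.08 CPM (0.76, edgeR adjusted p = 0.9997). Of 13 Wnt antagonists 8 were positive (median 0.22), and Sfrp1, a secreted frizzled-related protein, was at 88.5, 221 and 169 CPM (-1.21, SE 0.22, edgeR adjusted p = 0.206).

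BMP pathway genes had 15 of 25 positive (median 0.17). Msx1 was at 74.2, 41.8 and 51.0 CPM (0.62, edgeR adjusted p = 0.914) and Msx2 at 123, 67.3 and 91.7 CPM (0.57), both above the WT pair. Retinoic acid genes had 4 of 18 positive (median -0.24), and Rxrg, a nuclear receptor, was at 4.29, 10.7 and 13.0 CPM (-1.52, SE 0.29, edgeR adjusted p = 0.300). Medians were 0.01 for 20 FGF genes, -0.01 for 17 Notch genes and -0.12 for 11 hedgehog genes. The 6 posterolateral otic markers were all negative (median -0.83), with Otx2 at 17.1, 40.0 and 40.8 CPM (-1.30, SE 0.19, edgeR adjusted p = 0.0853). Of 21 dorsal and endolymphatic markers tested, Oc90 fell, 0 rose and 12 were positive (median 0.08). The 8 dorsal genes Wnt2b, Fzd10, Msx1, Msx2, Gbx2, Lmx1a, Dlx5 and Dlx6, which were above 1 on the log2 ratio of gated to other otic cells in each library, were each above both WT values in CD. Their log2 fold changes ran from 0.13 for Dlx6 to 0.76 for Wnt2b, and none passed (edgeR adjusted p of 0.677 or more). The share of all tested genes with a CD value above both WT values is not given here, so these are values only. Foxi1, the ninth gene above that ratio, was below both WT values in CD, at 0.820, 1.15 and 3.78 CPM. Fzd10, a Wnt receptor, was at 25.6, 14.4 and 14.6 CPM (0.75). Dlx5 was at 207, 169 and 185 CPM (0.16, SE 0.17) and Lmx1a at 205, 162 and 182 CPM (0.19, SE 0.18).

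Of 18 cartilage and SOX9-bound matrix genes tested, Cnmd fell, 0 rose and 4 were positive (median -0.49). Col9a3, a cartilage collagen chain, was at 56.4, 117 and 165 CPM (-1.39, edgeR adjusted p = 0.181) and Col9a1 at 71.3, 118 and 137 CPM (-0.90, edgeR adjusted p = 0.337), both chosen after their values were seen. Of 18 endolymph ion transport genes 0 passed and 6 were positive (median -0.24).

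Lists of other cell types and of RNA quality moved in the gated cells as well. The 13 macrophage markers were all negative (median -1.34) and so were the 13 erythroid markers (-1.20), while 10 of 11 endothelium markers were (-0.66), with 0 past the threshold. Of the 9 neural crest and glia markers tested, 2 fell by edgeR and 0 rose, 2 were positive and the median was -0.53, beside 0.0328% of all genes called lower. Their summed level was 228, 349 and 399 CPM in gated cells, with 0 members at 0. Lyz2, a macrophage lysozyme, was at 0.675, 4.50 and 28.1 CPM. Ribosomal protein genes had 12 of 93 positive (median -0.17) and mitochondrial genes 12 of 13 (median 0.27). Mitochondrial UMIs were 3.77%, 2.44% and 3.43% of a gated cell at the median. The part of these lists in the calls was not tested, except that without the haemoglobin-rich cells, an alternative chosen after seeing the data, the 7 calls remained among 3 genes that rose and 10 that fell.

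The CD effect was also compared between gated and other otic cells in 1 model with the library as a block. By edgeR, 13 genes were higher and 35 lower in this difference (CD minus WT in gated cells, less the same in other otic cells) of 16659 tested, 0.288% of them (0.078% higher and 0.21% lower). Of the 5 genes above, Runx1t1 passed in this test and the other 4 did not (edgeR adjusted p from 0.410 to 1). Runx1t1 had log2 fold changes of 1.40 in gated and 0.83 in other otic cells (difference 0.57, SE 0.12, edgeR adjusted p = 0.0354), and this difference passed in 4 of 10 alternatives (largest adjusted p = 1). For Cnmd the values were -2.99 and -2.56, and for Oc90 -3.17 and -3.42, with differences of -0.43 (edgeR adjusted p = 0.517) and 0.22 (edgeR adjusted p = 1).

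Fst, a secreted antagonist of activin and BMP, had the largest difference upward of the genes named by the rule. It was at 68.6 CPM in gated cells of CD replicate 1, 43.5 in WT replicate 1 and 73.6 in WT replicate 2, and at 9.06, 14.6 and 31.2 CPM in other otic cells (difference 1.51, SE 0.14, edgeR adjusted p = 1.15e-05). In the gated cells the CD level lay within the WT pair, and in the other cells it lay below both. Wnt4, a Wnt ligand, showed the same arrangement, with 32.4, 23.7 and 50.1 CPM in gated and 6.08, 9.17 and 23.7 CPM in other cells (1.19, SE 0.15, edgeR adjusted p = 6.36e-04). Emx2, a homeobox gene of the ear, was at 40.0, 25.5 and 29.8 CPM and at 15.8, 18.9 and 22.8 CPM (0.91, SE 0.13, edgeR adjusted p = 9.95e-04), above the WT pair in gated cells and below it in the others. Fst passed in 10 of 10 alternatives and Wnt4 and Emx2 in 9 of 10.

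Gprin3 was level in gated cells, at 13.4, 13.6 and 14.3 CPM, and lower in CD in the others, at 5.396, 12.3 and 12.3 CPM (1.11, SE 0.17, edgeR adjusted p = 0.00309, passed in 7 of 10 alternatives). Cyp26b1, an enzyme that degrades retinoic acid, went the other way. It was at 5.79, 9.90 and 8.48 CPM in gated and 13.4, 7.66 and 6.83 CPM in other otic cells (-1.58, SE 0.21, edgeR adjusted p = 6.44e-04).

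Cited1, a transcriptional coactivator, was at 14.6, 35.0 and 60.4 CPM in gated and 18.6, 20.9 and 31.0 CPM in other otic cells (difference -1.24, SE 0.14, edgeR adjusted p = 1.11e-04), under the threshold in 10 of 10 alternatives. Its relative Cited4 (-1.13), the metallothioneins Mt1 (-1.45) and Mt2 (-1.38) and Blvrb (-1.42), a biliverdin reductase of red cells, were lower too. Of the 13 erythroid markers, 11 were lower in the difference. The 8 haemoglobin genes summed to 4457, 4925 and 12961 CPM in gated and to 13521, 5803 and 6401 CPM in other otic cells. Leaving out the haemoglobin-rich cells takes away most haemoglobin UMIs of the gated cells, so a loss of erythroid genes from the calls was close to fixed. Without the haemoglobin-rich cells, 10 genes were higher and 5 lower, 0 of them from the erythroid list. Mt1 (0.19), Mt2 (0.09), Blvrb (-0.16) and Cited4 (-0.06) did not pass. Fst, Wnt4, Gprin3, Emx2, Cyp26b1 and Cited1 still passed there, and Runx1t1 did not (0.60, edgeR adjusted p = 0.0526).

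**Figure D5:**
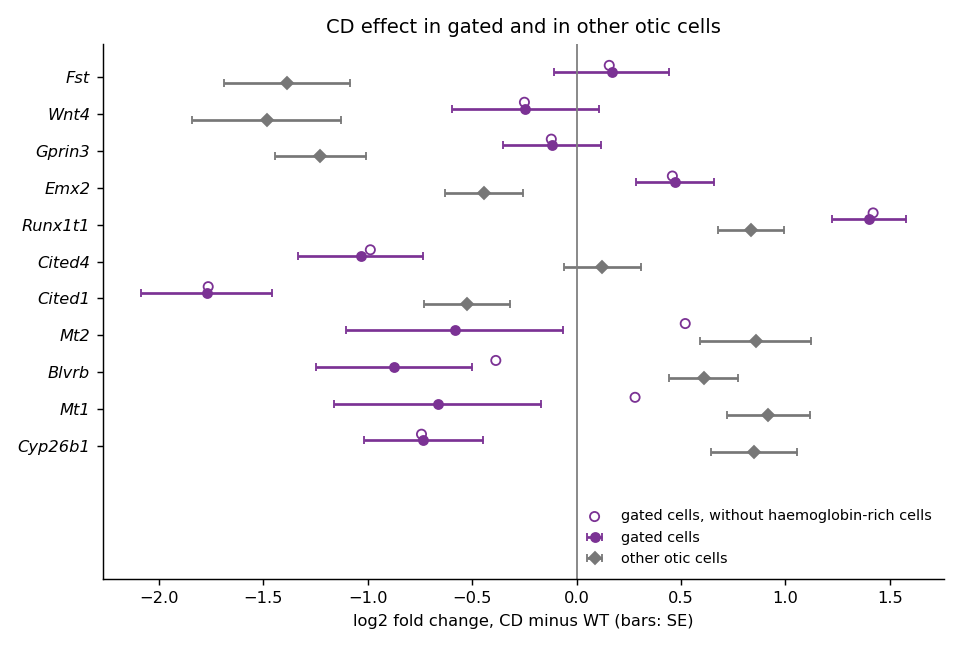
log2 fold change of CD minus WT (horizontal axis, bars are SE) for 11 named genes whose change differed between gated cells (filled circles) and other otic cells (diamonds), with open circles for gated cells after leaving out haemoglobin-rich cells. The open circles of Mt1 and Mt2 move to the right of 0, and those of Fst, Wnt4, Emx2, Cited1 and Cyp26b1 stay within the bars.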

How the data were processed

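UMI counts per gene and barcode (32285 features, not normalised) were used as the authors deposited them for 1 CD and 2 WT libraries. The kit is version 3.1 of the Chromium 3' chemistry per the labels' protocols. Cell Ranger 6.0 was run on build mm39 per the submitters' processing notes (6.0.0 per the file headers). RefSeq promoter windows are on another build, GRCm38.p6, and were matched by symbol.

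Cells were gated as the report describes and UMIs were summed per library over gated and over other otic cells, since cells are not replicates. Sums were tested with edgeR 4.0.16 in R 4.3.3 (TMM scaling, filterByExpr, quasi-likelihood test, Benjamini-Hochberg adjustment, threshold 0.05). The median prior was 8.37 degrees of freedom in gated cells and 17.9 for the difference. SE is the size of the log2 change over the root of the F statistic. DESeq2 1.42.0 was an alternative. Doublets were called with Scrublet in scanpy 1.11.5 (expected rate 5%, per library) and kept. Mesenchyme-like cells have at least 3 UMIs of Prrx1 and Twist1 together and 0 of Epcam. The scripts were tested on simulated data. The labels do not state whether the 2 WT pools came from separate litters. A p-value here thus reflects how far these samples differ, and that spread could be technical.

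The gate, its genes and the 32 gene lists were chosen with earlier results of these data known. Named genes are the gate genes, the SOX genes, Fxyd3, Nrp2, Oc90, Otol1 and Cnmd. They also include the 15 highest and 10 lowest ratios of gated to other otic cells (at least 20 CPM) and the called genes with the largest changes (at least 10 CPM, 5 each way for the difference). From each list come up to 4 called members or else the 2 of smallest p, and all dorsal markers. Predicted, mitochondrial, ribosomal protein, haemoglobin and sex-linked genes were passed over. Some tested and called genes are not reported here.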

Additional observations from a re-analysis of the deposited data

Results flagged for a closer look

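The change of CD minus WT differed between gated and other otic cells, by a test of the difference itself, for 11 named genes. The differences on the log2 scale were 1.51 for Fst, 1.19 for Wnt4, 1.11 for Gprin3, 0.91 for Emx2 and 0.57 for Runx1t1. They were -1.58 for Cyp26b1, -1.45 for Mt1, -1.42 for Blvrb, -1.38 for Mt2, -1.24 for Cited1 and -1.13 for Cited4. For Fst, Wnt4 and Gprin3 the CD level lay below both WT levels in the other otic cells. There the WT levels of Fst and Wnt4 lay further apart than the levels of CD and WT replicate 1. The rule for differences did not ask for a change beyond the gap between the WT libraries. In the gated cells the CD level lay within the WT pair for Fst and Wnt4 and close to it for Gprin3. For Cited1 the larger departure was in the gated cells. Of 10 alternatives, Fst and Cited1 passed in 10, Wnt4, Emx2 and Cyp26b1 in 9, Gprin3 in 7, Blvrb in 6, Cited4, Mt1 and Mt2 in 5 and Runx1t1 in 4. The level of blood cell RNA moved with Mt1, Mt2, Blvrb and Cited4: without 22 haemoglobin-rich gated cells and 78 other otic ones their differences were 0.19, 0.09, -0.16 and -0.06, and none of these 4 passed by edgeR (adjusted p = 1 for each). Runx1t1 did not pass there either (0.60, edgeR adjusted p = 0.0526).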

How the results depend on the processing

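With 1 CD library, leaving out a WT library gives values and no counts of calls. Without WT replicate 1 or 2, 47 and 51 of 122 gated values and 61 and 67 of 124 differences moved by more than 1 SE. None of the called values changed sign. Calls in gated cells were named for a change beyond the gap between the WT libraries, so for them this outcome was close to fixed. The lone WT library leaves no residual degree of freedom, and with fewer than 3 libraries per group no outlier could be looked for. No paired analysis was possible because the CD group has replicate 1 alone, so the groups share fewer than 2 replicate numbers. Genes higher in gated CD cells numbered 2, and 5 with DESeq2, 42 without a gene filter, 18 with the gate on thinned cells, and 0 without called doublets, without Prrx1 or Twist1 UMIs and with the stricter cell filter by edgeR (228, 218 and 189 at an unadjusted p under 0.05). Genes lower numbered 5, and 24 with DESeq2, 102 without a gene filter, 10 with a gate of 3 genes, 9 with 5 genes, 51 with the gate on thinned cells, 10 without haemoglobin-rich cells, and 1 in each of the last 3 settings above. For the difference between gated and other otic cells, 13 genes were higher, and 24 with RLE scaling, 1 with DESeq2, 43 without a gene filter, 20 and 5 with gates of 3 and 5 genes, 7 without called doublets, 6 without Prrx1 or Twist1 UMIs and 23 with the stricter cell filter. The 35 lower genes became 4 with DESeq2, 93 without a gene filter, 63 and 6 with gates of 3 and 5 genes, 20 without called doublets, 7 without Prrx1 or Twist1 UMIs, 66 with the stricter cell filter and 5 without haemoglobin-rich cells. Differences that changed sign were Nrp2 (-0.74) and Dcn (-4.504) with the gate on thinned cells, Hba-x (0.63) and Hbb-y (0.41) with a gate of 5 genes, and Mt1 (0.19), Mt2 (0.0885), Hba-x (0.0415) and Hbb-y (0.0936) without haemoglobin-rich cells. The cause of these changes was not tested. The CD share of gated cells stayed above the WT mean in each setting, by 0.889 to 3.16 points. Except with the gate on thinned cells, it lay between the WT shares in each setting. In those settings the SD between the WT libraries was 3.32 to 7.91 points.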

Other observations

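Adhesion genes of the protocadherin family and a matrix gene were among those higher in gated CD cells than the change in other otic cells would give, and they were chosen after their values were seen. Pcdh18 was at 57.4 CPM in gated cells of CD replicate 1, 23.4 in WT replicate 1 and 28.9 in WT replicate 2, and at 15.998, 12.6 and 12.9 CPM in other otic cells (difference 0.79, SE 0.13, edgeR adjusted p = 0.00548). Pcdh7 was at 111, 57.1 and 69.2 CPM and at 49.3, 45.1 and 46.4 CPM (0.69, SE 0.11, edgeR adjusted p = 0.00379). Hapln1, a link protein of cartilage matrix, was at 42.9, 21.2 and 23.9 CPM and at 5.999, 5.22 and 6.52 CPM (0.87, SE 0.15, edgeR adjusted p = 0.00917). In other otic cells the 3 genes had log2 fold changes of 0.28, 0.06 and -0.01, so the CD level there lay near the WT pair.

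Evx1, a homeobox gene, had 3 UMIs in the gated cells of CD replicate 1, 77 in WT replicate 1 and 48 in WT replicate 2 (0.145, 3.06 and 2.63 CPM, edgeR adjusted p = 0.107), and without haemoglobin-rich cells it fell (edgeR adjusted p = 0.0404). Slc24a4, a sodium, potassium and calcium exchanger, had 29, 159 and 235 UMIs (1.40, 6.32 and 12.9 CPM, edgeR adjusted p = 0.189). Dlx1, a homeobox gene, was at 20.7, 5.21 and 9.63 CPM (1.43 on the log2 scale, SE 0.33, edgeR adjusted p = 0.460).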
